A study of Homo sapiens with 12 samples.

Results

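Integrins are the cell surface receptors through which adherent cells hold on to the extracellular matrix, and 10 of their subunit genes were read here in glioblastoma cells that over-express PEPD and in their NC counterparts. The 10 genes, ITGA2, ITGA3, ITGA4, ITGA5, ITGA6, ITGAV, ITGB1, ITGB3, ITGB5 and ITGB8, were taken by symbol from a table of 63241 genes. All 10 were present and all 10 passed the filter on low counts, which left 8773 genes for testing. Polyadenylated RNA was sequenced in T98G and U251, established human glioblastoma cell lines. The 4 groups were T98G PEPD-OE, T98G NC, U251 PEPD-OE and U251 NC, with 3 libraries in each. PEPD-OE stands for over-expression of PEPD, the gene of a cytosolic dipeptidase that splits dipeptides ending in proline or hydroxyproline. NC is not spelled out in the labels, nor is the vector, the promoter that drives PEPD, the time after its introduction or whether a line was a clone. The labels do not say whether replicates were separate cultures, so the p-values measure the spread between these libraries, which may be technical.

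Each integrin is a pair of 1 alpha and 1 beta subunit, and the pairing sets what it binds. ITGB1 pairs with many alpha subunits. Its pairs with ITGA2 bind collagen, those with ITGA3 and ITGA6 bind laminins, that with ITGA5 binds fibronectin and that with ITGA4 binds fibronectin and VCAM1. ITGAV pairs with ITGB1, ITGB3, ITGB5 and ITGB8 and recognises the arginine-glycine-aspartate motif in vitronectin, fibronectin and the latent form of TGF-beta. In glioblastoma, integrins are known for their part in invasion along vessels and white matter.

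The libraries held 464056 to 924204 counts, with a median of 772231.5, and T98G NC replicate 1 was the smallest. A level is given as CPM, counts per 1e+06 counts of a library size corrected by TMM, a scaling that lines up the bulk of genes between libraries. A count of 3 corresponded to 3.20 to 6.33 CPM. The TMM factors were 0.908 to 0.931 in T98G PEPD-OE and 1.05 to 1.08 in T98G NC, so the direction of small changes in T98G depended on the scaling. Libraries were strand-marked with dUTP, and the strand setting of the counting is not given in the sources used here. BEST1, which lies opposite FTH1, held 486557 counts against 10068 for FTH1, and TALAM1 held 219603 against 4272 for MALAT1, which lies opposite it. Genes with an exon opposite another gene made up 62.2% to 70.1% of each library. Which strand the integrin counts stand for was not tested, so a level named for a gene may not be that of its own transcript. Of 9 glial and glioblastoma markers, OLIG2 had no count in any library. SOX2 had 0 or 1 count in each T98G library and 181 to 354 in each U251 library. GFAP had 18 to 58 counts in T98G and 574 to 1189 in U251. CD44 went the other way, averaging 723 CPM in T98G PEPD-OE, 804 in T98G NC, 361 in U251 PEPD-OE and 376 in U251 NC. In the same order of groups, VIM averaged 474, 723, 1573 and 2091 CPM, and SOX9 31.0, 83.2, 101 and 92.2 CPM. NES averaged 2.48, 6.27, 348 and 370.5 CPM, and FABP7 0, 0, 12.5 and 14.7 CPM. S100B held 0 to 2 counts in each library. The 6 leukocyte and microglia markers summed to 54 counts in T98G PEPD-OE replicate 2 and 59 in T98G NC replicate 2, against 0 to 6 in the other 10 libraries.

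PEPD itself averaged 164 ± 9.50 CPM in T98G PEPD-OE and 11.0 ± 8.20 CPM in T98G NC (SD, n = 3 each). In U251 it averaged 175 ± 10.6 CPM in PEPD-OE and 9.55 ± 3.44 CPM in NC (SD, n = 3 each). Its log2 fold change was 4.04 in T98G (SE 0.25, edgeR adjusted p = 1.71e-32) and 4.16 in U251 (SE 0.23, edgeR adjusted p = 1.86e-35), in the direction of the labels in both lines.

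More of the 10 integrins were called between the lines, 7 between the NC groups and 9 between the PEPD-OE groups, than between PEPD-OE and NC, 3 in T98G and 1 in U251. All tested genes stood in the same order, with 48.7% called between the NC groups, 52.6% between the PEPD-OE groups, 32.3% in T98G and 8.55% in U251. In T98G, the laminin receptor subunit ITGA6 and the collagen receptor subunit ITGA2 were lower in PEPD-OE and ITGAV was higher. In U251 the same comparison called ITGB3 alone, on few counts. The main partner subunit ITGB1 and the laminin receptor subunit ITGA3 were called in neither line. The promoters of the 3 subunits called in T98G are shown because these genes went different ways in the same cells. Each line gives the 250 bases before the RefSeq start on GRCh38.p14, 5′ to 3′, with capitals marking matches to any of 3 motifs searched on both strands.
ITGA2, chr5:52989102-52989351, plus strand: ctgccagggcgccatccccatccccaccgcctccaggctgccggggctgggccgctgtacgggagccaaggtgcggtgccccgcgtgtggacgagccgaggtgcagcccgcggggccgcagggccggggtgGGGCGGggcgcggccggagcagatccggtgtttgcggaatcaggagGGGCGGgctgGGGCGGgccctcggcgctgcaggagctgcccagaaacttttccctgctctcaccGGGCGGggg
ITGA6, chr2:172427086-172427335, plus strand: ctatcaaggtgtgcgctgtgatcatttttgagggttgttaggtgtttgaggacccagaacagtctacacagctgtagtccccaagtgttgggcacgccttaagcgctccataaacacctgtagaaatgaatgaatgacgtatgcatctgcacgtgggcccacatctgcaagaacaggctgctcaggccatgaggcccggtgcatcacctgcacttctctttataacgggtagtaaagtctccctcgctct
ITGAV, chr2:186589806-186590055, plus strand: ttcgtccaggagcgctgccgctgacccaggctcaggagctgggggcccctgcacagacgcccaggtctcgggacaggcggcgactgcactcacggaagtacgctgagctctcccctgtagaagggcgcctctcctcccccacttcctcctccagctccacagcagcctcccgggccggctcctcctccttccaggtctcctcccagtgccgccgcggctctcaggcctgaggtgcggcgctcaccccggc
The motifs were AP-1 (TGANTCA), TEAD (GGAATG) and the GC box of SP and KLF factors (GGGCGG), and matches to different motifs did not overlap in these 3 windows. The ITGA2 window held 4 GC boxes and 76.4% G or C. The ITGA6 window held no match and 50.8% G or C, and the ITGAV window held no match and 70.8% G or C. Of 35116 RefSeq promoter windows of the same length, 6.57% held the AP-1 letters, 11.9% the TEAD letters and 42.6% the GC box. Among all 10 members, 8 had an entry in the promoter table, and ITGA3 and ITGB3 were not among them. ITGA6, ITGAV and ITGB1 had 2 entries each and ITGB5 had 3, and only the entry nearest the gene's start was searched. ITGA5 and ITGB1 each held 1 TEAD match, and ITGA5, ITGB1, ITGB5 and ITGB8 held 1 to 3 GC boxes. A match is a description of the letters and not a binding site.

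The comparison of NC cells asked how the lines differ in integrins without added PEPD. T98G NC had more ITGA2, ITGA6, ITGB1, ITGB3 and ITGB5 than U251 NC, and less ITGA3 and ITGB8. Of the 10 members, 5 were called higher and 2 lower at an adjusted p under 0.05, and 3 were not called. Over all tested genes 48.7% were called, 24.4% higher and 24.3% lower, and the libraries of both groups did not overlap for 55.1%. The median log2 fold change of the 10 members was 1.03, against -0.00070 over all tested genes. In such bulk RNA, fewer cells that hold a transcript and less of it per cell cannot be told apart.

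ITGA3 (chromosome 17, 50055968 to 50090481, plus strand; GRCh38, GENCODE 29) had 245, 259 and 240 CPM in T98G NC and 891, 876 and 884 CPM in U251 NC. The highest T98G NC library stood far below the lowest U251 NC library. The log2 fold change was -1.83 (SE 0.11, edgeR adjusted p = 4.80e-36). ITGA6 (chromosome 2, 172427354 to 172506282, plus strand) had 118, 142 and 156 CPM in T98G NC and 12.04, 27.1 and 19.2 CPM in U251 NC. Each T98G NC library held several times the level of any U251 NC library, and the log2 fold change was 2.85 (SE 0.22, edgeR adjusted p = 6.35e-25). These subunits of laminin receptors thus differed between the lines in opposite directions, ITGA6 higher and ITGA3 lower in T98G. Within each line ITGA3 had the higher mean, 248 against 138 CPM in T98G NC and 884 against 19.4 CPM in U251 NC.

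ITGB1 (chromosome 10, 32900319 to 33005792, minus strand) had 441, 439 and 417 CPM in T98G NC and 185, 265 and 220 CPM in U251 NC. All 3 T98G NC libraries were higher, with a log2 change of 0.95 (SE 0.12, edgeR adjusted p = 2.43e-12). ITGA2 (chromosome 5, 52989326 to 53094779, plus strand) had 78.1, 110 and 97.9 CPM in T98G NC and 30.1, 33.5 and 38.4 CPM in U251 NC. Its log2 fold change was 1.51 (SE 0.20, edgeR adjusted p = 8.67e-11), with no overlap. Of the partners of ITGAV, ITGB5 (chromosome 3, 124761948 to 124901418, minus strand) had 61.2, 62.4 and 55.2 CPM in T98G NC and 24.1, 23.2 and 23.1 CPM in U251 NC, a log2 change of 1.33 (SE 0.25, edgeR adjusted p = 1.94e-06). ITGB8 (chromosome 7, 20330702 to 20415754, plus strand), which with ITGAV activates latent TGF-beta, went the other way. It had 6.33, 11.7 and 11.3 CPM in T98G NC and 37.3, 29.6 and 38.4 CPM in U251 NC, with a log2 change of -1.76 (SE 0.34, edgeR adjusted p = 5.09e-06).

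ITGB3 (chromosome 17, 47253846 to 47311816, plus strand) is the vitronectin receptor partner of ITGAV and the platelet fibrinogen receptor partner of ITGA2B. It rested on 3, 4 and 14 counts in T98G NC and on 4, 0 and 4 counts in U251 NC, which came to 6.33, 5.20 and 17.6 CPM and to 4.82, 0 and 5.12 CPM. Its log2 fold change was 1.56 (SE 0.62, edgeR adjusted p = 0.0271). The call was lost in 4 of 23 other settings. Among them were those without T98G NC replicate 3 (0.72, adjusted p = 0.496) and without U251 NC replicate 2 (1.01, adjusted p = 0.185), and DESeq2 (adjusted p = 0.0772). The level in U251 NC was near that of a count of 3. The remaining subunits were not called. ITGAV (chromosome 2, 186590065 to 186680901, plus strand) averaged 40.4 ± 7.84 CPM in T98G NC and 32.3 ± 1.00 CPM in U251 NC (SD, n = 3 each), and its libraries overlapped. ITGA5 (chromosome 12, 54395261 to 54419460, minus strand) averaged 42.3 ± 6.27 CPM in T98G NC and 37.2 ± 4.63 CPM in U251 NC (SD, n = 3 each).

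ITGA4 (chromosome 2, 181457202 to 181536187, plus strand) had 8.44, 23.4 and 7.53 CPM in T98G NC and 4.82, 7.73 and 6.40 CPM in U251 NC, a log2 change of 1.10 (SE 0.50, edgeR adjusted p = 0.0568). The high T98G NC library was replicate 2, whose leukocyte markers summed to 59 counts, 35 of them PTPRC. ITGA4 is also an integrin of leukocytes. In T98G PEPD-OE, replicate 2 held 54 counts of the same list and the lowest ITGA4 level of its group, 12.5 CPM. Between the NC groups the ITGA4 value changed with the T98G NC libraries used. Without replicate 2 it was 0.32 (edgeR adjusted p = 0.727), without replicate 1 it was 1.26 (edgeR adjusted p = 0.0359) and without replicate 3 it was 1.44 (edgeR adjusted p = 0.0193). With library totals as the only scaling it was 1.22 (edgeR adjusted p = 0.0332). The part of those markers in the ITGA4 level was not tested.

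Levels were scaled to the length of each gene's exons in GENCODE 29 to set genes beside each other. This takes the counts to come from the gene's own strand and from that annotation, which was not tested. In T98G, ITGB1 was highest, with 64.7 ± 4.35 CPM per kilobase in PEPD-OE and 71.9 ± 2.28 in NC (SD, n = 3 each). ITGA3 followed with 23.4 ± 1.37 CPM per kilobase in PEPD-OE and 25.3 ± 1.00 in NC (SD, n = 3 each). In U251 the order of this pair was turned round. ITGA3 reached 87.7 ± 5.10 CPM per kilobase in PEPD-OE and 90.1 ± 0.76 in NC, and ITGB1 reached 37.9 ± 3.12 in PEPD-OE and 37.2 ± 6.67 in NC (SD, n = 3 each). Every other member stood at or below 21.2 CPM per kilobase in each group. The third place in T98G NC was held by ITGA6 with 21.2 ± 2.89 CPM per kilobase. In T98G PEPD-OE, ITGAV with 9.22 ± 1.53, ITGA6 with 9.19 ± 1.84 and ITGA2 with 8.89 ± 1.55 CPM per kilobase did not differ beyond their spread. The lowest mean in T98G was that of ITGB8, with 0.68 ± 0.18 CPM per kilobase in PEPD-OE and 0.64 ± 0.20 in NC (SD, n = 3 each). In U251 it was 0.86 ± 0.30 in PEPD-OE for ITGA4 and 0.75 ± 0.65 in NC for ITGB3 (SD, n = 3 each). AC068234.1 covers 51.6% of the ITGB3 exon bases on the same strand. Whether reads shared by both genes were counted was not tested, so the place of ITGB3 is uncertain.

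**Figure D1:**
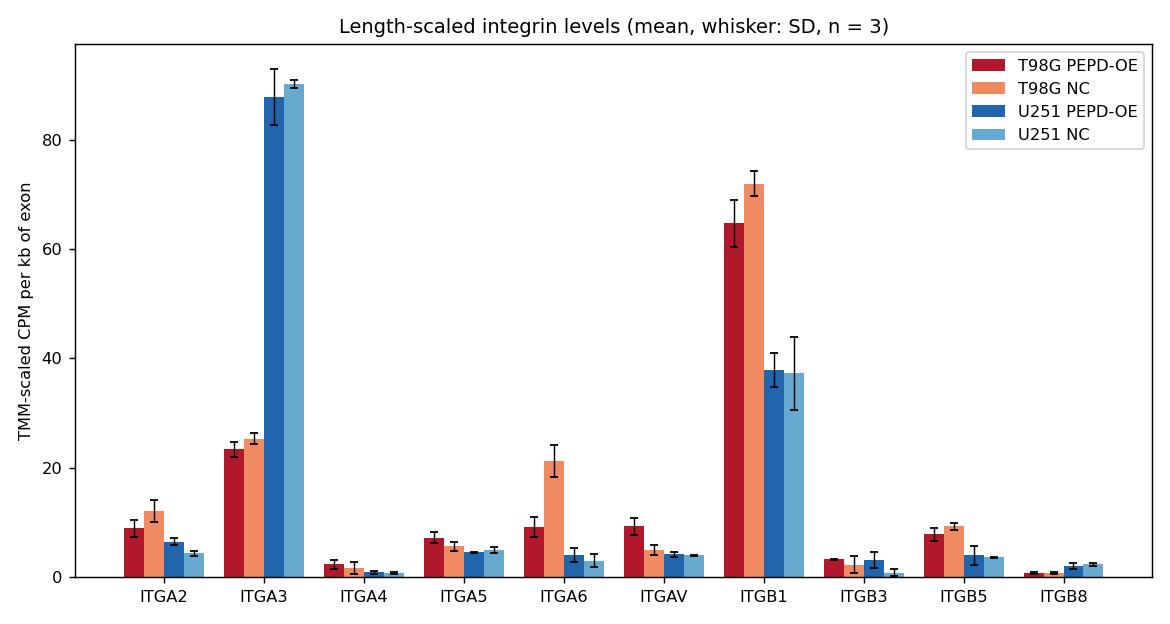
Mean level per kilobase of exon (TMM-scaled CPM per kilobase, y axis) of each integrin subunit (x axis) in the 4 groups, with whiskers of 1 SD over 3 libraries. ITGB1 is highest in T98G, at 64.7 in PEPD-OE and 71.9 in NC, and ITGA3 is highest in U251, at 87.7 in PEPD-OE and 90.1 in NC.

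The comparison of PEPD-OE with NC in T98G asked which subunits changed with PEPD in that line. Of the 10 members, ITGAV was called higher, ITGA6 and ITGA2 were called lower, and 7 were not called. The 3 called members are set against 32.3% of all tested genes called, 17.7% higher and 14.7% lower, so the members were called about as often as genes at large. The median log2 fold change of the members was -0.047, and that of all tested genes was 0. The libraries of both groups did not overlap for ITGA3, ITGA6, ITGAV and ITGB1, 4 of 10 members, against 43.5% of all tested genes.

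ITGA6, the alpha subunit of laminin receptors with ITGB1 or ITGB4, had 72.5, 59.2 and 48.4 CPM in T98G PEPD-OE, against 118, 142 and 156 CPM in T98G NC. Every PEPD-OE library was below every NC library. The log2 fold change was -1.23 (SE 0.18, edgeR adjusted p = 6.69e-09), and the mean in T98G PEPD-OE still stood above that in either U251 group. The call held under all 23 other settings in which ITGA6 was tested, with log2 fold changes of -1.45 to -1.09. A length of 52 bases of ITGA6 exons, 0.796% of their total, lies opposite exons of ENSG00000225205 (AC078883.1 in GENCODE 29, an antisense gene). That gene had 29.6, 12.5 and 27.1 CPM in T98G PEPD-OE and 71.8, 87.1 and 52.7 CPM in T98G NC, a log2 change of -1.59 (SE 0.26, edgeR adjusted p = 8.55e-08). The pair fell together in T98G, and how far their counts share reads was not tested. Other genes opposite ITGA6, AC078883.2 and ITGA6-AS1, held 0 or 1 count in each library and were not tested. GPR84-AS1, opposite ITGA5, had no count in any library, and ITGB1-DT, opposite ITGB1, and ITGB8-AS1, opposite ITGB8, held 0 to 2 counts in each.

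ITGAV, the alpha subunit of the vitronectin receptors, had 90.2, 68.6 and 68.4 CPM in T98G PEPD-OE, against 44.3, 45.5 and 31.4 CPM in T98G NC. The groups did not overlap. The log2 fold change was 0.93 (SE 0.22, edgeR adjusted p = 0.000283). It stayed called in all 23 other settings in which ITGAV was tested, at 0.71 to 1.11. Its opposite gene AC017101.1 covers 203 bases of ITGAV exons and held 5, 3 and 3 counts in T98G PEPD-OE and 0, 3 and 2 counts in T98G NC. Of the beta subunits that pair with ITGAV, none was called in T98G. ITGB5 averaged 50.3 ± 7.5 CPM in PEPD-OE and 59.6 ± 3.85 CPM in NC, with a log2 change of -0.23 (SE 0.22, n = 3 each, edgeR adjusted p = 0.454). ITGB3 had 14.8, 14.0 and 14.3 CPM in PEPD-OE against 6.33, 5.20 and 17.6 CPM in NC, where 1 NC library was above all PEPD-OE libraries. ITGB8 averaged 10.4 ± 2.78 CPM in PEPD-OE and 9.77 ± 2.99 CPM in NC (SD, n = 3 each), with a log2 change of 0.019 (SE 0.46, edgeR adjusted p = 0.985) whose sign turned under 4 of 22 other settings.

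ITGA2, the alpha subunit of a collagen receptor, had 56.2, 76.4 and 78.4 CPM in T98G PEPD-OE, against 78.1, 110 and 97.9 CPM in T98G NC. The highest PEPD-OE library was above the lowest NC library. The log2 change of -0.47 (SE 0.18, edgeR adjusted p = 0.0397) was lost under 8 of 24 other settings, among them without PEPD-OE replicate 1 (adjusted p = 0.260), without NC replicate 2 (0.224), without NC replicate 3 (0.101) and with DESeq2 (0.157). The fold change remained below 0 in all 24, at -0.69 to -0.33. Without replicate 2 of both T98G groups, the libraries with leukocyte markers, ITGA6 and ITGAV were still called in T98G and ITGA2 was not (-0.42, adjusted p = 0.219). ITGA2-AS1, an antisense-named gene without an exon opposite ITGA2 exons in GENCODE 29, did not pass the filter and was not tested. It held 18, 10 and 8 counts in T98G PEPD-OE and 0, 3 and 2 in T98G NC. In U251 it held 2, 2 and 4 counts in PEPD-OE and 2, 1 and 4 in NC.

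Among the abundant subunits, ITGB1 averaged 389 ± 26.2 CPM in T98G PEPD-OE and 432 ± 13.7 CPM in T98G NC (SD, n = 3 each). Its log2 fold change was -0.15 (SE 0.11, edgeR adjusted p = 0.325). ITGA3 averaged 229 ± 13.4 CPM in T98G PEPD-OE and 248 ± 9.81 CPM in T98G NC (SD, n = 3 each), with a log2 change of -0.11 (SE 0.12, edgeR adjusted p = 0.493). Neither was called, though with library totals as the only scaling ITGB1 came to -0.37 (adjusted p = 0.00581) and ITGA3 to -0.33 (adjusted p = 0.0141), both called lower. That scaling moved the median of all tested genes in T98G by -0.21. ITGA5, the fibronectin receptor subunit, had 56.2, 60.8 and 45.6 CPM in T98G PEPD-OE and 46.4, 45.5 and 35.1 CPM in T98G NC, and its log2 change of 0.37 (SE 0.23, edgeR adjusted p = 0.224) was not called. ITGA4 had 25.2, 12.5 and 17.1 CPM in T98G PEPD-OE and 8.44, 23.4 and 7.53 CPM in T98G NC, which overlapped.

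**Figure D2:**
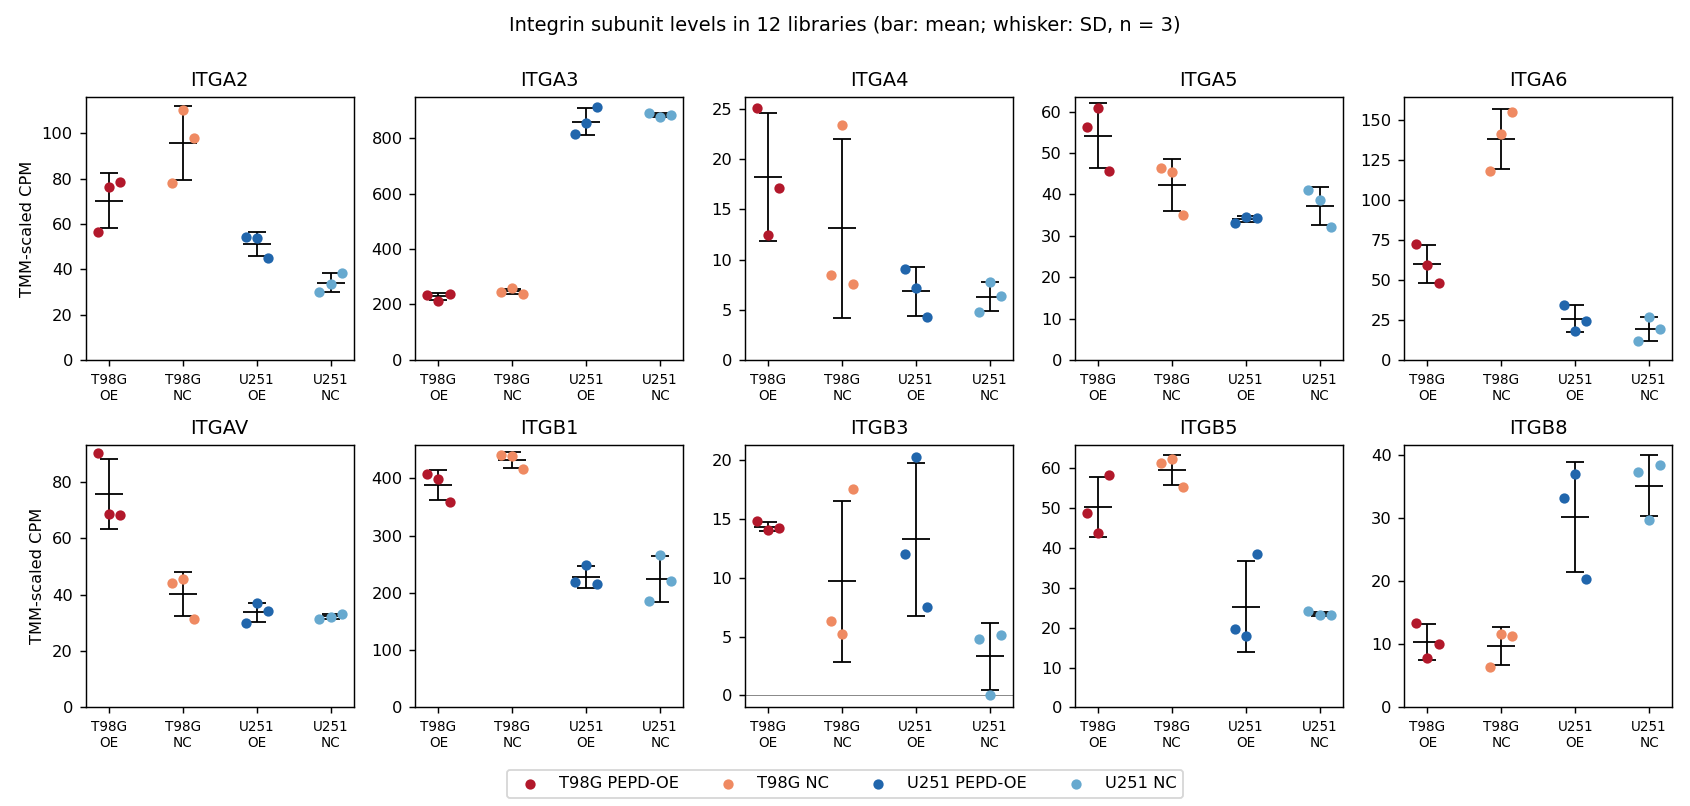
TMM-scaled CPM (y axis, from 0 at or near the bottom of each panel) of the 10 integrin subunits in each of the 12 libraries (points) by group (x axis), with the mean (bar) and SD (whisker, n = 3). ITGA6 lies at 48.4 to 72.5 in T98G PEPD-OE and 118 to 156 in T98G NC, and ITGA3 lies at 814 to 913 in U251 PEPD-OE and 876 to 891 in U251 NC, above every T98G library.

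In U251, PEPD-OE left 9 of the 10 members without a call, and ITGB3 was called higher. Over all tested genes 8.55% were called, 4.13% higher and 4.42% lower. The count of 750 called genes was 440 without U251 PEPD-OE replicate 2, 449 without U251 NC replicate 1 and 442 without U251 NC replicate 3. The groups did not overlap for ITGB3 and ITGA2, against 22.4% of tested genes. The median log2 fold change of the members was 0.071, beside 0.0017 for all tested genes.

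ITGB3 rested on 8, 17 and 7 counts in U251 PEPD-OE, against 4, 0 and 4 counts in U251 NC. The levels were 12.1, 20.3 and 7.48 CPM in PEPD-OE and 4.82, 0 and 5.12 CPM in NC. All PEPD-OE libraries were higher, and NC lay at or near the level of a count of 3. The log2 fold change was 1.92 (SE 0.57, edgeR adjusted p = 0.0164). The call was lost without PEPD-OE replicate 2 (1.45, adjusted p = 0.238) and without NC replicate 2 (1.37, adjusted p = 0.154), DESeq2 gave no adjusted p, and ITGB3 was not among the genes tested when U251 was fitted alone. GENCODE 29 places AC068234.1 on the same strand over 51.6% of the ITGB3 exon bases, and it had no count in any library. Of the 2 platelet markers, GP1BA had 15, 13 and 18 counts in PEPD-OE and 24, 19 and 18 counts in NC, and ITGA2B had 0 counts in PEPD-OE and 1 in NC. In T98G, GP1BA summed to 122 counts in PEPD-OE and 61 in NC, and ITGA2B to 4 in PEPD-OE and 0 in NC. The part of these markers in the ITGB3 level was not tested.

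ITGA2 had 54.2, 53.7 and 44.9 CPM in U251 PEPD-OE, against 30.1, 33.5 and 38.4 CPM in U251 NC. Each PEPD-OE library was above each NC library, but the log2 change of 0.57 (SE 0.22, edgeR adjusted p = 0.0982) was not called under any of 24 other settings, with adjusted p from 0.0506 to 0.316. ITGA6 had 34.7, 17.9 and 24.6 CPM in U251 PEPD-OE and 12.04, 27.1 and 19.2 CPM in U251 NC, which overlapped (log2 fold change 0.38, SE 0.30, edgeR adjusted p = 0.523). ITGAV had 30.1, 37.0 and 34.2 CPM in U251 PEPD-OE and 31.3, 32.2 and 33.3 CPM in U251 NC (log2 fold change 0.076, SE 0.25, edgeR adjusted p = 0.913). The values of both subunits overlapped between the groups. Neither of the abundant subunits was called. ITGA3 averaged 860.1 ± 50 CPM in PEPD-OE and 884 ± 7.44 CPM in NC, and ITGB1 averaged 228 ± 18.8 CPM in PEPD-OE and 224 ± 40.1 CPM in NC (SD, n = 3 each). ITGB5 had 19.6, 17.9 and 38.4 CPM in U251 PEPD-OE and 24.1, 23.2 and 23.1 CPM in U251 NC, so that 1 PEPD-OE library was above the other 5 libraries. ITGB8 averaged 30.2 ± 8.75 CPM in PEPD-OE and 35.1 ± 4.79 CPM in NC, and ITGA5 averaged 34.0 ± 0.75 CPM in PEPD-OE and 37.2 ± 4.63 CPM in NC (SD, n = 3 each). ITGA4 averaged 6.83 ± 2.40 CPM in PEPD-OE and 6.32 ± 1.46 CPM in NC (SD, n = 3 each). None of these 3 was called.

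Whether the lines differed in their response was tested as the change in T98G less that in U251. The difference was called for ITGA6, ITGA2 and ITGAV, 1 higher and 2 lower of 10 members. Of all tested genes 27.7% were called, 14.1% higher and 13.6% lower. For ITGA6 the difference was -1.60 (SE 0.35, edgeR adjusted p = 0.000118), with all 3 T98G PEPD-OE libraries below T98G NC and overlapping libraries in U251. For ITGA2 it was -1.04 (SE 0.29, edgeR adjusted p = 0.00298), where the fitted change was below 0 in T98G and above 0 in U251. Both held in all other settings in which the gene was tested, at -1.91 to -1.35 for ITGA6 and -1.34 to -0.90 for ITGA2. For ITGAV the difference was 0.85 (SE 0.33, edgeR adjusted p = 0.0435), and it was lost under 13 of 22 other settings, DESeq2 among them (0.89, adjusted p = 0.109). Leaving out T98G PEPD-OE replicate 1, T98G NC replicate 3, U251 PEPD-OE replicate 1 or 3 or any U251 NC replicate each ended this call, at 0.67 to 0.87 with adjusted p of 0.0624 to 0.171. ITGB3 had the difference -1.44 (SE 0.75, edgeR adjusted p = 0.150) and was not called, so its higher level in U251 PEPD-OE was not shown to be particular to that line. The antisense gene AC078883.1 differed by -2.12 (SE 0.47, edgeR adjusted p = 0.00013), with 16.6, 15.5 and 13.9 CPM in U251 PEPD-OE and 12.04, 9.02 and 10.2 CPM in U251 NC.

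**Figure D3:**
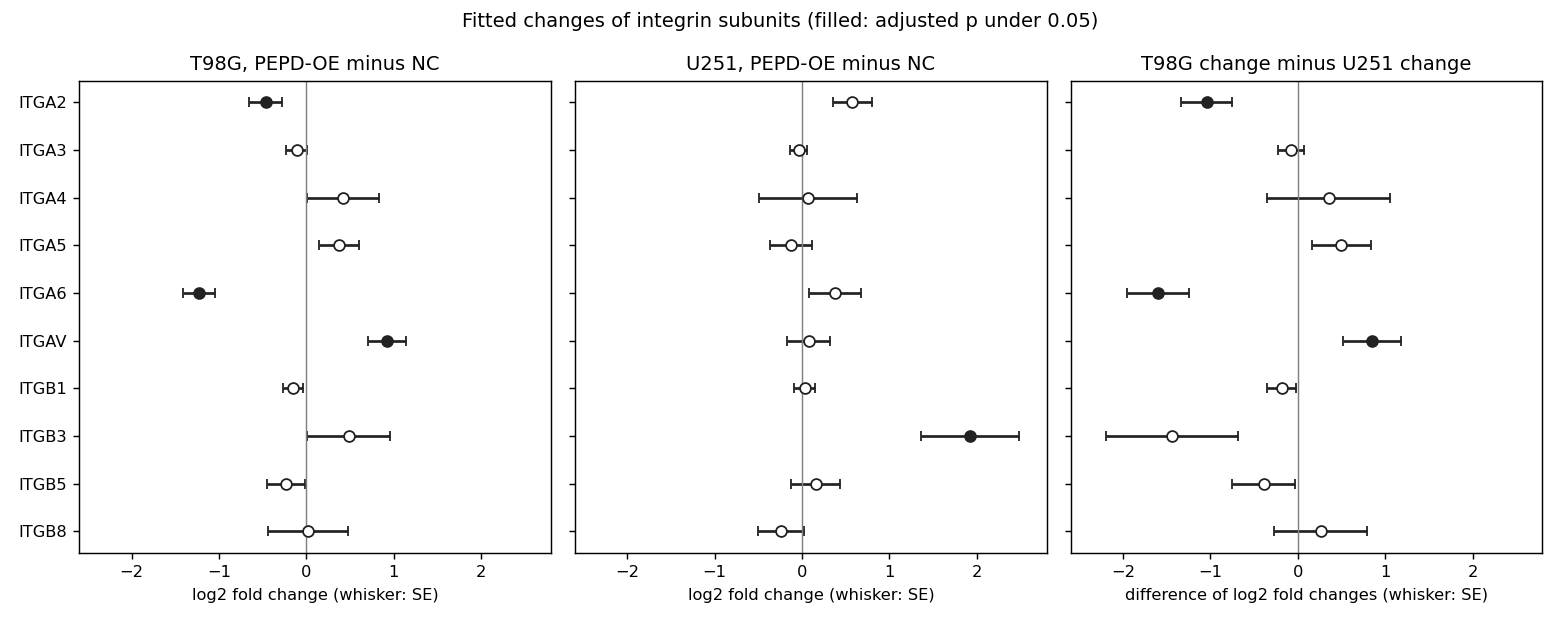
Fitted log2 fold change of PEPD-OE over NC in T98G (left) and U251 (middle), and the change in T98G less that in U251 (right), for each integrin subunit, with whiskers of 1 SE; filled points have an edgeR adjusted p under 0.05. ITGA6 is at -1.23 in T98G and 0.38 in U251, ITGA2 at -0.47 and 0.57, and ITGAV at 0.93 and 0.076.

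With PEPD over-expressed in both lines, 9 of the 10 members differed between T98G and U251, 7 higher and 2 lower in T98G. This comparison shares its libraries with those above. Of all tested genes 52.6% were called, 26.3% higher and 26.3% lower, and the libraries did not overlap for 55.9%. ITGAV averaged 75.7 ± 12.6 CPM in T98G PEPD-OE and 33.8 ± 3.45 CPM in U251 PEPD-OE (SD, n = 3 each), a log2 change of 1.15 (SE 0.22, edgeR adjusted p = 1.72e-06). ITGA6 averaged 60.0 ± 12.04 CPM in T98G PEPD-OE and 25.7 ± 8.43 CPM in U251 PEPD-OE (SD, n = 3 each), and its log2 fold change was 1.25 (SE 0.24, edgeR adjusted p = 4.01e-06) beside 2.85 between the NC groups. ITGA3 stayed lower in T98G at -1.91 (SE 0.11, edgeR adjusted p = 9.02e-38), as did ITGB8 at -1.498 (SE 0.35, edgeR adjusted p = 0.000143). ITGB1 stayed higher at 0.77 (SE 0.12, edgeR adjusted p = 7.00e-09), as did ITGB5 at 0.95 (SE 0.25, edgeR adjusted p = 0.000704). ITGA4 at 1.45 (SE 0.46, edgeR adjusted p = 0.00495) and ITGA5 at 0.66 (SE 0.23, edgeR adjusted p = 0.0105) were called here and not between the NC groups. The ITGA4 call was lost in 1 of 23 other settings, without T98G PEPD-OE replicate 1 (1.16, adjusted p = 0.0731). The ITGA5 call was lost in 3 of 22, among them without T98G PEPD-OE replicate 2 (0.57, adjusted p = 0.0623). ITGA2 at 0.47 (SE 0.20, edgeR adjusted p = 0.0385) was lost in 11 of 23, among them without replicate 2 or 3 of either group, with adjusted p up to 0.210 over all 23. ITGB3 was not called, with 14.8, 14.0 and 14.3 CPM in T98G PEPD-OE and 12.1, 20.3 and 7.48 CPM in U251 PEPD-OE.

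Ordered by mean, the 4 groups fell into a few patterns. ITGA6 ran from T98G NC over T98G PEPD-OE and U251 PEPD-OE to U251 NC, and only the U251 groups overlapped. ITGA2 had the same order, and there the T98G groups overlapped and the others did not. ITGAV had T98G PEPD-OE on top, and the other groups overlapped with their neighbours. ITGA3 and ITGB8 had both U251 groups above both T98G groups. ITGB1 and ITGB5 had both T98G groups above both U251 groups. ITGA4 and ITGA5 had T98G PEPD-OE on top, and each group overlapped the next. ITGB3 had U251 NC at the bottom, and the other 3 groups overlapped. The highest U251 NC library and the lowest T98G NC library both held 4 counts of ITGB3, at 5.12 and 5.20 CPM, so these groups were barely apart.

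The genes whose pattern over the 12 libraries was most like that of a called member, by Pearson's r of log2 CPM among 8334 genes, were found for ITGA2, ITGA6, ITGAV and ITGB3. For ITGA2 they were MYH9, the heavy chain of non-muscle myosin, with r = 0.96, and SSR3, a subunit of the translocon-associated protein complex, with r = 0.955. For ITGA6 they were SLC46A1, the proton-coupled folate transporter, with r = 0.979 and MALSU1, a mitoribosome assembly factor, with r = 0.969. For ITGAV they were CALU, the calcium-binding protein calumenin, with r = 0.968 and IL1R1, the interleukin 1 receptor, with r = 0.964. ITGB3 was most like MPP1 (r = 0.883) and GFPT2 (r = 0.88). The 12 libraries fall into 4 groups and share the difference between lines, so these values only describe likeness. SLC46A1, MALSU1 and IL1R1 have an exon opposite another gene.

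Other integrin subunits, the proteins of focal adhesions, integrin ligands and regulators of integrins were read as lists of 16, 30, 36 and 29 genes. Of the other subunits, 4 of 16 were tested. In T98G, ITGA11, another collagen receptor subunit, rose to 51.4 ± 12.6 CPM in PEPD-OE against 24.6 ± 4.73 CPM in NC (SD, n = 3 each; log2 fold change 1.05, SE 0.31, edgeR adjusted p = 0.00439). That call was lost with DESeq2 and without replicate 2 of both T98G groups. In U251, ITGB4, the laminin receptor partner of ITGA6, fell to 226 ± 28.5 CPM in PEPD-OE against 305 ± 16.5 CPM in NC (SD, n = 3 each; -0.42, SE 0.12, edgeR adjusted p = 0.0161), a call lost in 5 of 24 other settings, among them without PEPD-OE replicate 1 or 2 and without NC replicate 1 or 3. In T98G, ITGB4 had only 5, 3 and 4 counts in PEPD-OE and 0, 4 and 1 in NC, so this partner of ITGA6 was near the level of a count of 3 there. ITGA7, a further laminin receptor subunit chosen after its values were seen, averaged 1.50 ± 1.48 CPM in T98G PEPD-OE, 2.57 ± 2.60 CPM in T98G NC, 133 ± 40.4 CPM in U251 PEPD-OE and 135 ± 4.20 CPM in U251 NC (SD, n = 3 each).

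Focal adhesion genes link integrins to actin. In T98G 2 of 22 tested were called higher and 1 lower, and in U251 1 was called higher. All tested genes were called in 32.3% in T98G and 8.55% in U251, so 3 of 22 and 1 of 22 do not stand above the background. The median log2 fold change of the list was -0.15 in T98G and 0.059 in U251, beside 0 and 0.0017 over all tested genes. LPP, a zyxin family protein, averaged 41.1 ± 4.44 CPM in T98G PEPD-OE and 20.04 ± 8.07 CPM in T98G NC (log2 fold change 1.03, SE 0.29, n = 3 each, edgeR adjusted p = 0.00326). Leaving out T98G NC replicate 3 ended that call (0.72, adjusted p = 0.0876). ACTN4, an actin crosslinker, averaged 256 ± 17.4 CPM in T98G PEPD-OE and 322 ± 17.7 CPM in T98G NC (-0.34, SE 0.12, n = 3 each, edgeR adjusted p = 0.0172), a call lost in 7 of 23 other settings, among them without PEPD-OE replicate 1 or 3 and without NC replicate 2 or 3. FLNA, which binds beta subunit tails and actin, rose in U251 to 1502 ± 137 CPM in PEPD-OE against 1103 ± 162 CPM in NC (0.45, SE 0.09, n = 3 each, edgeR adjusted p = 5.65e-05).

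Among the ligands, 30 of 36 were tested. In T98G 12 were called higher and 3 lower, with a median log2 fold change of 0.47, and in U251 5 were called higher and 2 lower, with a median of -0.087. Over all tested genes 17.7% were called higher and 14.7% lower in T98G, and 4.13% higher and 4.42% lower in U251. THBS1, a matricellular ligand of several integrins, had 271 ± 37.8 CPM in T98G PEPD-OE and 1261 ± 12.6 CPM in T98G NC (SD, n = 3 each; log2 fold change -2.21, SE 0.11, edgeR adjusted p = 3.63e-43). In U251 it had 675 ± 78.3 CPM in PEPD-OE and 306 ± 51.4 CPM in NC (SD, n = 3 each; 1.14, SE 0.11, edgeR adjusted p = 1.23e-17), so it fell in T98G and rose in U251. TNC, the matrix protein tenascin C, fell in T98G to 8.84 ± 3.57 CPM in PEPD-OE against 41.5 ± 12.3 CPM in NC (-2.26, SE 0.32, n = 3 each, edgeR adjusted p = 7.94e-10). TGFB2, a TGF-beta secreted in a latent form, rose there to 97.7 ± 14.6 CPM in PEPD-OE against 23.3 ± 7.07 CPM in NC (2.05, SE 0.24, n = 3 each, edgeR adjusted p = 2.27e-13). VCAM1, the ligand of ITGA4, rose to 51.0 ± 3.19 CPM in T98G PEPD-OE against 13.7 ± 2.87 CPM in T98G NC (1.93, SE 0.32, n = 3 each, edgeR adjusted p = 2.11e-07).

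FN1, the fibronectin gene and ligand of ITGA5 and ITGAV, was chosen after its values were seen. It averaged 1006 ± 32.4 CPM in T98G PEPD-OE and 547 ± 52.8 CPM in T98G NC, with a log2 fold change of 0.88 (n = 3 each, edgeR adjusted p = 5.83e-13). In U251 the matricellular ligands CCN2 and CCN1 rose. CCN2 had 492 ± 49.2 CPM in U251 PEPD-OE and 99.7 ± 10.8 CPM in U251 NC (2.30, SE 0.13, n = 3 each, edgeR adjusted p = 1.44e-34), and CCN1 had 170 ± 9.60 CPM in PEPD-OE and 65.9 ± 14.0 CPM in NC (1.38, SE 0.16, n = 3 each, edgeR adjusted p = 5.07e-12). COL4A1, a basement membrane collagen chain, rose in U251 to 132 ± 6.74 CPM in PEPD-OE against 71.6 ± 17.9 CPM in NC (0.89, SE 0.16, n = 3 each, edgeR adjusted p = 1.58e-05) and fell in T98G by 0.59 on the log2 scale (edgeR adjusted p = 0.00048).

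Of the integrin regulators, 24 of 29 were tested. In T98G 3 were called higher and 3 lower, and in U251 1 higher and 1 lower. These 6 of 24 and 2 of 24 lie near or below the 32.3% called in T98G and the 8.55% called in U251 over all tested genes. The median log2 fold change was 0.22 in T98G and 0.11 in U251. CAV1, the caveolae protein involved in integrin uptake, fell in T98G to 30.6 ± 4.93 CPM in PEPD-OE against 115 ± 12.9 CPM in NC (-1.92, SE 0.21, n = 3 each, edgeR adjusted p = 5.67e-15). DAB2, an endocytic adaptor of beta subunits, had the log2 fold change 1.24 in T98G (edgeR adjusted p = 0.0127) and TSPAN4, a tetraspanin, 0.88 (edgeR adjusted p = 0.000342), while PLAUR, the urokinase receptor, had -0.97 (edgeR adjusted p = 0.0334). The DAB2 call was lost in 4 of 24 other settings, among them without replicate 2 of either T98G group. The PLAUR call was lost in 7 of 24, among them without PEPD-OE replicate 3 and without NC replicate 1 or 2. In U251 the tetraspanin CD9 had 13.6 ± 3.29 CPM in PEPD-OE and 27.5 ± 5.33 CPM in NC (-0.98, SE 0.33, n = 3 each, edgeR adjusted p = 0.0399), a call lost in 7 of 23 other settings, among them without PEPD-OE replicate 1 or 2 and without NC replicate 1 or 3. ITGB1BP1, which binds the tail of ITGB1, had the log2 fold change 0.45 in U251 (edgeR adjusted p = 5.17e-05). LPP, ACTN4, FLNA, TNC, THBS1, CCN2, ITGA7 and ITGB1BP1 each have an exon opposite another gene, and their counts are uncertain for that reason. The strand setting of the counting is not given, and which strand the counts of any other gene stand for was not tested either.

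**Figure D4:**
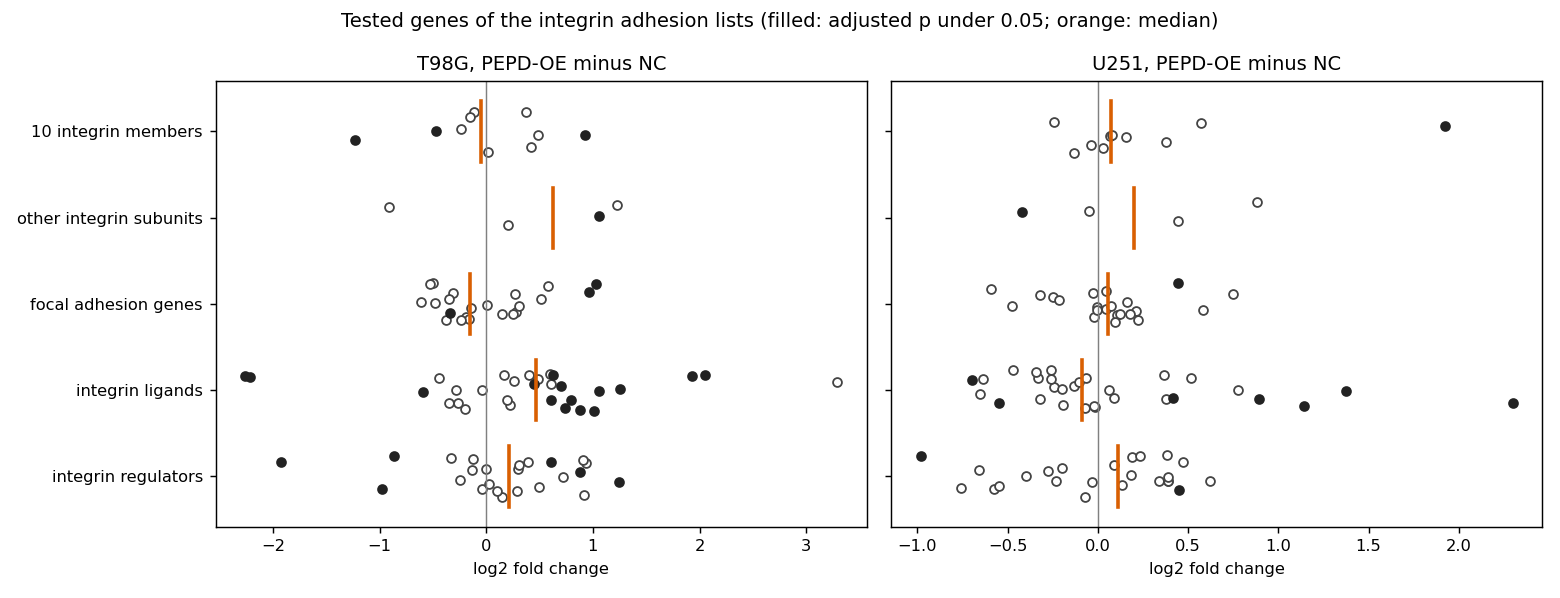
Log2 fold change of PEPD-OE over NC (x axis) of every tested gene of the 10 members and the 4 lists in T98G (left) and U251 (right); filled points have an edgeR adjusted p under 0.05, orange bars are medians, and the 2 panels have different x ranges. The ligand list has its median at 0.47 in T98G and -0.087 in U251, the members at -0.047 and 0.071.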

How the data were processed

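Per the labels, polyadenylated RNA was captured on beads, strand-marked with dUTP and sequenced in pairs on an Illumina NovaSeq. Per the submitters' processing notes, GRCh38, HISAT2, featureCounts, Subread, fastp and FastQC were used. Neither the gene annotation nor the counter's strand option is stated there. The authors deposited raw counts per Ensembl gene, 1 column for each of 12 libraries. Library totals were 464056 to 924204.

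Genes were filtered with filterByExpr (minimum count 10), scaled by TMM and tested with edgeR 4.0.16 (R 4.3.3), using the robust quasi-likelihood F test with 1 mean for each of 4 groups and 8 residual degrees of freedom. The same fit gave all 5 comparisons. P-values were adjusted by Benjamini-Hochberg over 8773 genes and called under 0.05. An SE is the absolute log2 fold change divided by the square root of F. Means are given with the SD over 3 libraries. The test was checked on simulated counts that had no difference between lines and 1 setting of the spread for all genes. Only 50 genes were changed at each size. A log2 fold change of -1 was called for 36% of the changed genes in T98G and 48% in U251, and one of 1 for 60% and 58%. For changes of -2 the shares were 74% and 88%, and for changes of 2 they were 100% in both. In the data 32.3% of tested genes were called in T98G, so these shares are not the chance of missing a change there. Some genes without a call could still hold a change of 1 on the log2 scale. Overlaps between exons used GENCODE 29, which holds 92.07% of the genes in the table and 95.88% of the counts. Promoters came from RefSeq (GRCh38.p14), from the entry nearest the gene's start. Over all genes the deviations of same-numbered replicates correlated at -0.0417 to 0.0582, under 0.1 for every pair, so the numbers were not taken as pairs. The highest value was that of replicate 2 of the T98G groups, which also shared counts of leukocyte markers. No 2 libraries of a group matched within sampling noise.

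The members, the gene lists and the tests were chosen with earlier results of these data known. All members and genes opposite them are named, and ITGA2-AS1 is given for its name. From each list and line, up to 4 called genes with the largest changes are named, where the higher group averaged 10 CPM or more and the libraries did not overlap. For likeness, the 2 genes with the highest r are named for each called member. Alternatives were RLE and upper-quartile scaling, 2 other filters, DESeq2 1.42.0, each line alone, a replicate block, non-robust fitting, dropping mitochondrial and other dominant genes, dropping genes with opposite exons, and leaving out each library. Library totals as the only scaling, and leaving out replicate 2 of both T98G groups, were added after seeing the data.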

Additional observations from a re-analysis of the deposited data

Results flagged for a closer look

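The change with PEPD-OE differed between T98G and U251, by the test of the change in T98G less that in U251, for 3 integrin subunits, 1 gene opposite a member and 13 other named genes, with edgeR adjusted p under 0.05. Over all tested genes 27.7% differed in this way. The 13 other genes were named for large called changes within a line in these same data. That choice favours a difference between the lines, so their number cannot be compared with that share. Values are differences of log2 fold changes. Among the subunits they were -1.60 for ITGA6 (adjusted p = 0.000118), -1.04 for ITGA2 (adjusted p = 0.00298) and 0.85 for ITGAV (adjusted p = 0.0435). The gene opposite ITGA6, AC078883.1, differed by -2.12 (adjusted p = 0.00013).

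Among ligands, THBS1 differed by -3.36 (adjusted p = 1.08e-46), CCN2 by -2.65 (adjusted p = 3.46e-16), TNC by -2.32 (adjusted p = 5.95e-09), CCN1 by -1.82 (adjusted p = 3.39e-10), COL4A1 by -1.48 (adjusted p = 5.96e-09) and TGFB2 by 1.67 (adjusted p = 0.0205). Only THBS1 and COL4A1 of these were called in both lines, in opposite directions. Among focal adhesion genes, LPP differed by 1.50 (adjusted p = 0.00359), FLNA by -0.64 (adjusted p = 9.36e-06) and ACTN4 by -0.43 (adjusted p = 0.0268). Among regulators, CAV1 differed by -2.27 (adjusted p = 5.20e-12), CD9 by 1.70 (adjusted p = 0.0138), PLAUR by -1.36 (adjusted p = 0.0144) and ITGB1BP1 by -0.49 (adjusted p = 0.00086). Under other settings the adjusted p reached 0.211 for ITGAV, 0.0995 for ACTN4, 0.159 for TGFB2, 0.0803 for CD9 and 0.0797 for PLAUR, and stayed under 0.05 for the other 12.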

How the results depend on the processing

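The low subunits ITGA4, ITGB3 and ITGB8 held 0 to 31 counts in a library. The calls of ITGA6 and ITGAV in T98G, and of ITGA2, ITGA3, ITGA6, ITGB1, ITGB5 and ITGB8 between NC groups, kept their direction and stayed under 0.05 in every setting in which the gene was tested.

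With the replicate block the member counts were 3 in T98G, 1 in U251, 7 between NC groups and 9 between PEPD-OE groups. For the difference between lines 2 members were called, since ITGAV came to 0.83 (adjusted p = 0.0509). No other member call changed with the block. Over all genes it called 2429 for the difference between lines.

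Limited to genes without an opposite exon, ITGA2, ITGA3, ITGA4, ITGB3 and ITGB5 remained. Of these 5 members 0 were called in T98G, 1 for the difference between lines, 4 between NC groups and 3 between PEPD-OE groups. ITGA6 and ITGAV have opposite exons and were dropped, so this setting could not check their calls in T98G. The T98G count of 0 stands beside 1 called by that fit in U251, and ITGA2 came to -0.43 (adjusted p = 0.0605) in T98G. The same setting called 1140 genes in T98G, 245 in U251, 917 for the difference between lines, 1843 between NC groups and 2043 between PEPD-OE groups, of 4176 tested. In U251 the member count was 0 with the line fitted alone, where 8 members were tested, and 0 with DESeq2, which called 415 genes there with 4253 adjusted p missing, against 750 in edgeR. By edgeR, 2 members had an unadjusted p under 0.05 in U251.

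With library totals alone, 5 members were called in T98G, 1 higher and 4 lower. All genes then split 1046 higher to 2067 lower in T98G, against 1551 to 1286 with TMM, and 535 to 232 in U251, against 362 to 388. The difference between lines split 809 to 1964, against 1239 to 1189, and PEPD-OE groups 1885 to 2874, against 2311 to 2306. The median of all genes moved by -0.21 in T98G, -0.30 for the difference, 0.12 between NC groups and -0.17 between PEPD-OE groups. Without replicate 2 of both T98G groups 2 members were called in T98G.

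Leaving out 1 library, the members called ranged from 2 to 3 in T98G, 0 to 1 in U251, 2 to 3 for the difference, 6 to 8 between NC groups and 7 to 9 between PEPD-OE groups. All genes called in U251 ranged from 440 to 742.

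Some signs turned in values that were not called in the analysis as reported, and the cause was not tested. ITGB8 in T98G came to -0.028 with upper-quartile scaling and -0.20 with library totals. Library totals gave ITGA3 in U251 0.044, ITGB8 for the difference -0.037 and ITGB3 between PEPD-OE groups -0.052. Without mitochondrial and dominant genes ITGB1 in U251 came to -0.0059. With 1 library left out, values that turned ranged from -0.19 to 0.17 for ITGB8 in T98G, and in U251 from -0.085 to 0.00048 for ITGA3, -0.15 to 0.34 for ITGA4, -0.092 to 0.16 for ITGB1, -0.33 to 0.37 for ITGB5 and -0.44 to 0.0014 for ITGB8. For the difference they ranged from -0.60 to 0.096 for ITGB5, -0.66 to 0.36 for PEPD and -4.07 to 1.16 for ITGA11, whose turned value, without U251 NC replicate 1, had an adjusted p of 0.0413. ITGB3 between PEPD-OE groups ranged from -0.21 to 0.59.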

Other observations

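ITGA8 and ITGAX, subunits outside the 10 members, were chosen after their values were seen and were not tested because they did not pass the filter on low counts. ITGA8 averaged 16.1 ± 8.25 CPM in T98G PEPD-OE and 6.50 ± 2.28 CPM in T98G NC (SD, n = 3 each) and had no count in U251. ITGAX averaged 15.4 ± 1.93 CPM in T98G PEPD-OE and 5.66 ± 1.25 CPM in T98G NC (SD, n = 3 each) and had no count in U251. ITGAX did not stand apart in replicate 2, where the leukocyte markers did. ITGA9 and ITGB6 had no count in any library.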
